A study of Mus musculus with 18 samples.

Results

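The collagen gene family was read here as every gene whose symbol is Col, a number, a and a number, which gave 44 of the 54752 genes in the table. Of these 44 genes, 36 passed the filter on low counts and were tested. They were followed in livers of male C57BL/6 mice that were 6 weeks old at the start, with 15 mice per arm and 6 livers of each arm sequenced in week 22. CCl4_PTH mice had carbon tetrachloride (CCl4, a solvent that liver enzymes turn into a reactive radical that injures hepatocytes) injected into the peritoneum 2 times a week and PTH by gavage daily. CCl4 mice had the same injections and double distilled water by gavage daily, and control mice had olive oil injections and the same water. The labels use both PTH and PZH, letters used for Pien Tze Huang, a Chinese medicine, for the gavaged preparation, and its dose was not stated. CCl4 is described in the labels as inducing liver cancer. Neither the presence of tumour in the sequenced tissue nor the interval since the final injection was stated. Libraries are named by group and by the number in their label.

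Collagens are extracellular proteins built of 3 chains wound into a triple helix, and each gene encodes 1 kind of chain. Fibrillar collagens (types I, III and V among them) form the cables of scar tissue, type IV forms the sheet of basement membranes, type VI forms beaded filaments around cells, and the FACIT collagens bind to the surface of fibrils. In a healthy liver collagen is sparse, and in a scarred liver stellate cells and portal fibroblasts that have become myofibroblasts are the known makers of fibrillar collagen.

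Libraries held 76.9 to 118.9 M counts in CCl4_PTH livers, 67.2 to 83.8 M in CCl4 livers and 77.2 to 86.6 M in control livers. Of these counts, 30.6% to 55.8% a library fell on ribosomal RNA loci. Depth differed with group, and its part in the differences of genes with few counts was not tested. Levels are given as CPM, counts scaled to a common library size with TMM factors. A gene is called higher or lower where edgeR's quasi-likelihood test gave an adjusted p under 0.05 over the 21840 genes tested, and log2 fold changes carry an approximate standard error (SE). Per the labels 6 mice of each group were sequenced, and each library was taken as 1 mouse. A gene at or near 0 in a group, such as Col28a1 in control livers or Col25a1 in CCl4 livers, passed the filter through the other livers alone. Counts are also given without Col28a1. The library CCl4_PTH 1 stood apart: on the second principal component of all genes, which held 7.65% of the variance, it lay at -43.4 and the other 5 CCl4_PTH libraries at 32.3 to 55.1. Controls 1 and 8 lay at 26.4 and 14.3 on that axis and the other 4 controls between -32.3 and -23.4. In bulk tissue, fewer cells of a type and less RNA per cell cannot be told apart.

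Most tested collagen genes were higher in CCl4 livers than in control livers. In CCl4 against control, 23 of the 36 tested members were higher and 4 lower, which is 75.0% called, beside 47.4% of all genes tested (26.3% higher and 21.2% lower). The median log2 fold change was 1.91 over the tested members and 0.05 over all genes. In 19 members all 6 CCl4 libraries lay above all 6 controls and in 4 members all lay below, beside 14.8% and 11.3% of all genes. Of the 23 that were higher, 17 were more than 4-fold higher. The share of all genes past 4-fold was not counted, so this count has no background beside it. Without Col28a1, which had 0 counts in control livers, 22 of 35 were higher, 16 of them by more than 4-fold. Col7a1, Col8a2 and Col11a2, whose rises carry the same limit of the filter, stay in the 22, and Col7a1 and Col8a2 in the 16. Col7a1 is also among the members above all controls, and Col25a1, which has that limit too, among those below. In CCl4_PTH against control, 23 were higher and 1 lower, 66.7% called beside 27.7% of all genes (17.4% higher and 10.3% lower), with a median of 1.63 beside 0.04. There all CCl4_PTH libraries lay above all controls in 19 members and below them in 1, beside 9.79% and 4.67% of all genes. Without Col28a1, 22 of 35 were higher, 18 lay above all controls and the median was 1.56. Col7a1 and Col8a2 stay in these 22 but not in the 18. These 2 comparisons share the control livers, and the values for each are given side by side below.

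CCl4_PTH and CCl4 livers differed in few members. In CCl4_PTH against CCl4, 3 members were higher (Col5a3, Col18a1 and Col25a1) and 2 lower (Col4a2 and Col11a2), which is 13.9% of those tested, beside 12.1% of all genes, so the share of members called lay near the background. The median was -0.19 over the tested members and -0.03 over all genes, with 23 members below 0 and 12 above. All CCl4_PTH libraries lay above all CCl4 libraries in 1 member and below them in 1, beside 2.2% and 1.87% of all genes. The member above was Col25a1, which carries the limit of the filter given above. Without CCl4_PTH 1 the count was 8 members, 3 higher and 5 lower, beside 17.4% of all genes. Without CCl4 4 it was 1 member, Col25a1, beside 6.9% of all genes, and likewise without CCl4 7, beside 7.22%. It was 3 without CCl4 2, and 2 without any 1 of CCl4_PTH 2, 3, 6 or 7. All genes called were 1704 without CCl4_PTH 6 and 1509 without CCl4_PTH 7, beside 2632 with all libraries. With library sizes alone in place of TMM factors the collagen count was also 1 member, beside 5.02% of all genes.

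**Figure D1:**
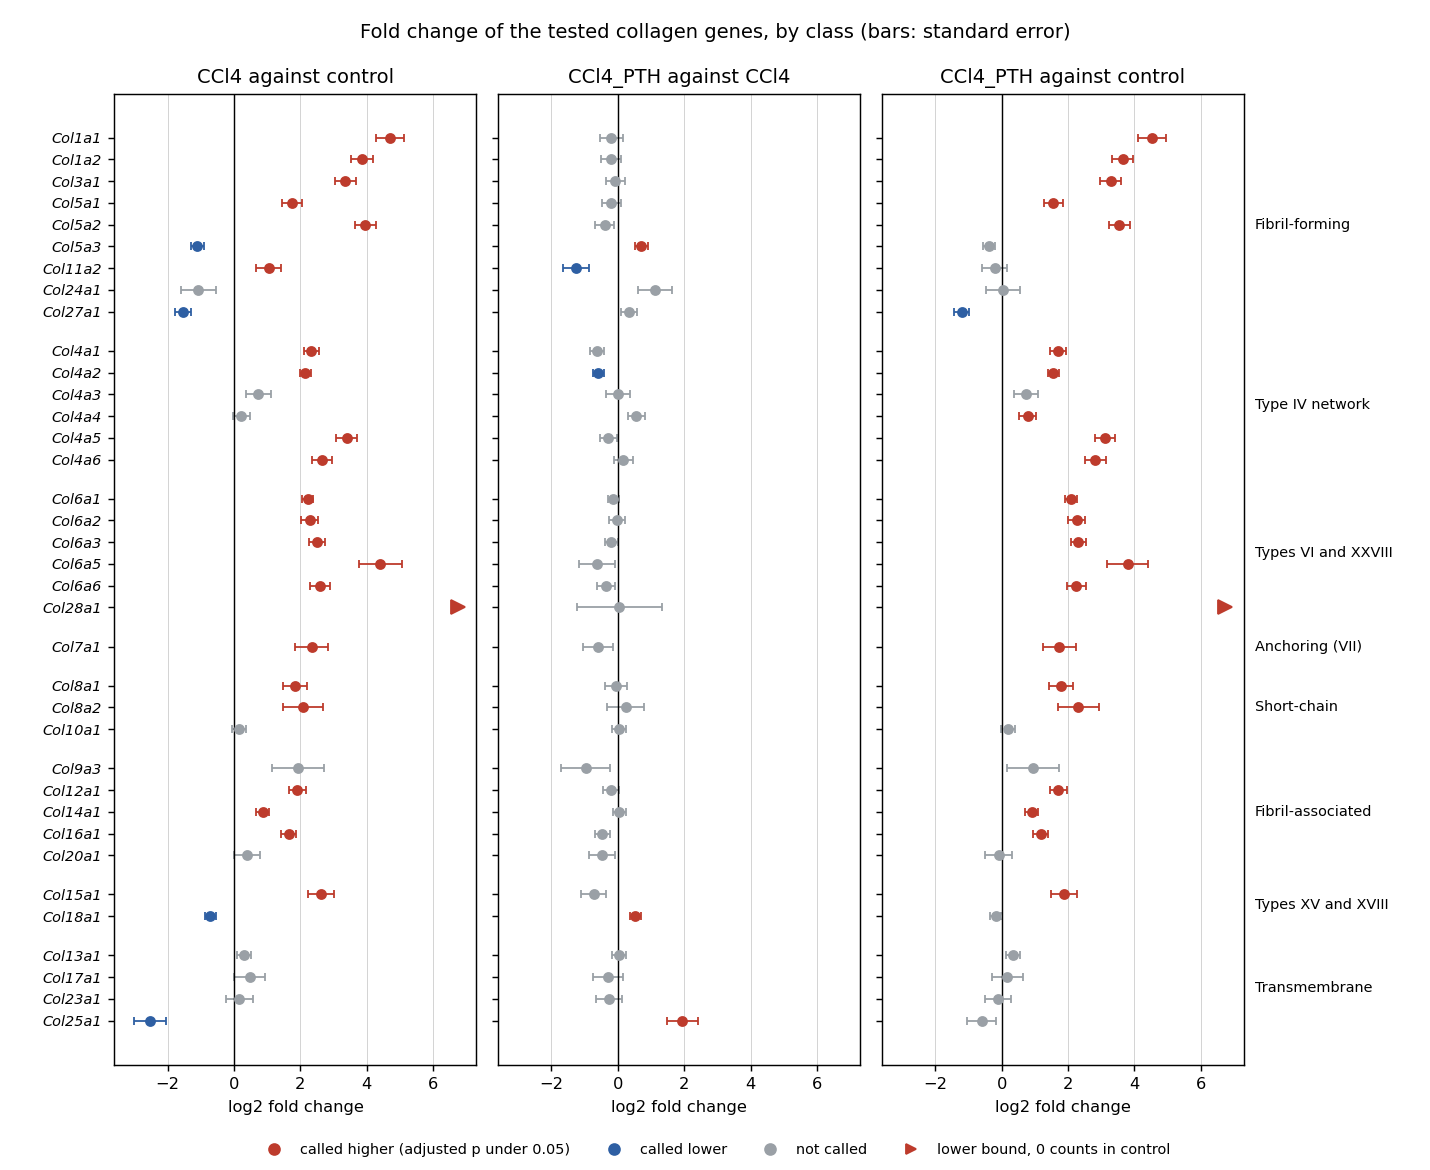
Log2 fold change with its SE (horizontal axis, log2) for the 36 tested collagen genes, grouped by class down the page, in CCl4 against control, CCl4_PTH against CCl4 and CCl4_PTH against control (3 panels, 6 libraries a group). Red marks genes called higher, blue genes called lower, grey genes not called, and the triangle of Col28a1 is a lower bound. The left and right panels lie mostly to the right of 0, with 23 genes higher in each, and the middle panel holds 5 coloured genes.

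Among the fibrillar collagens, 9 of 11 members were tested, and in CCl4 against control 6 were higher and 2 lower. Col1a1 (ENSMUSG00000001506, chr11:94936224-94953042, plus strand, GRCm38) encodes the more abundant chain of type I collagen, which holds a pair of it with a single Col1a2 chain. Its level was 57.9, 103 and 268 CPM in CCl4_PTH livers (lowest, median and highest of 6), 86.4, 131 and 197 CPM in CCl4 livers, and 2.47, 6.07 and 7.74 CPM in control livers. Both groups given CCl4 lay wholly above the controls and overlapped each other, with CCl4_PTH 1 the highest of all 18 libraries and CCl4_PTH 7 the lowest of the 12 given CCl4. The log2 fold change was 4.71 ± 0.42 (SE, adjusted p 2.06e-07) in CCl4 against control, -0.19 ± 0.36 (0.795) in CCl4_PTH against CCl4, and 4.52 ± 0.42 (1.52e-06) in CCl4_PTH against control.

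Col1a2 had 51.1, 88.0 and 197 CPM in CCl4_PTH livers, 73.0, 113 and 156 CPM in CCl4 livers, and 3.87, 8.76 and 10.1 CPM in control livers. Its log2 fold change was 3.84 ± 0.33 (adjusted p 1.34e-07) in CCl4 against control, with no overlap of the groups, and -0.2 ± 0.3 (0.717) in CCl4_PTH against CCl4. Col3a1 (chr1:45311538-45349706, plus strand), the single chain of type III collagen that forms thin fibrils with type I, had 81.6, 133 and 237 CPM in CCl4_PTH livers, 65.7, 163 and 204 CPM in CCl4 livers, and 8.99, 14 and 20.5 CPM in control livers. CCl4 2 was the lowest of the livers given CCl4 and still lay above every control. The log2 fold change of Col3a1 was 3.35 ± 0.31 (adjusted p 2.36e-07) in CCl4 against control, -0.07 ± 0.28 (0.905) in CCl4_PTH against CCl4, and 3.28 ± 0.31 in CCl4_PTH against control.

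The 3 genes of type V collagen, whose chains sit in the core of type I fibrils and limit their width, did not move together. Col5a2 had 14.1, 18.6 and 40.7 CPM in CCl4_PTH livers, 20.2, 25.2 and 50.8 CPM in CCl4 livers, and 1.23, 1.8 and 3.17 CPM in control livers. Col5a1 had 16.4, 21 and 62.9 CPM in CCl4_PTH livers, 18.6, 34.4 and 39.5 CPM in CCl4 livers, and 7.57, 8.84 and 13.5 CPM in control livers. Both were higher in CCl4 against control with no overlap, Col5a2 by 3.95 ± 0.32 (adjusted p 8.15e-08) and Col5a1 by 1.76 ± 0.3 (0.0001) on the log2 scale.

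Col5a3 (chr9:20770050-20815067, minus strand), which encodes the least common kind of type V chain, went the other way. Its level was 15.5, 23.3 and 28.7 CPM in CCl4_PTH livers, 9.2, 12.3 and 20.9 CPM in CCl4 livers, and 23.4, 29.0 and 35.6 CPM in control livers. Every CCl4 library lay below every control, while CCl4_PTH livers overlapped both other groups, with CCl4_PTH 1 the lowest of them. Col5a3 was lower in CCl4 against control by -1.1 ± 0.19 (adjusted p 0.00011), a level 2.14-fold lower, and higher in CCl4_PTH against CCl4 by 0.71 ± 0.19 (0.0191). In CCl4_PTH against control the difference of -0.38 ± 0.19 (adjusted p 0.138) was not called. The difference between CCl4_PTH and CCl4 livers missed the threshold without CCl4 4 (adjusted p 0.0509) and without CCl4 7 (0.051).

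To show the DNA in front of chains that rose and of the type V chain that fell, the 250 bases before the annotated start are given for 4 of these genes, read 5′ to 3′ on the gene's strand from RefSeq on GRCm38.p6. Capitals mark a TATA box (TATAAA, or TTTATA for a match on the other strand), a CCAAT box (CCAAT or, likewise, ATTGG) and a GC box (GGGCGG or CCGCCC). The windows are chr6:4505368-4505617 (plus) for Col1a2, which lies inside the longer GENCODE gene, chr1:45311288-45311537 (plus) for Col3a1, chr2:27886175-27886424 (plus) for Col5a1 and chr9:20815068-20815317 (minus) for Col5a3.
Col1a2: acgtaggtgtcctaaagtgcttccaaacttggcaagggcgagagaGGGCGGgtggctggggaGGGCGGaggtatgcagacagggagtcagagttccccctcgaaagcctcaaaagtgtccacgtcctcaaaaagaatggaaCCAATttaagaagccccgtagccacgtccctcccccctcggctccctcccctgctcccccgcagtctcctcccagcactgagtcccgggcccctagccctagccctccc
Col3a1: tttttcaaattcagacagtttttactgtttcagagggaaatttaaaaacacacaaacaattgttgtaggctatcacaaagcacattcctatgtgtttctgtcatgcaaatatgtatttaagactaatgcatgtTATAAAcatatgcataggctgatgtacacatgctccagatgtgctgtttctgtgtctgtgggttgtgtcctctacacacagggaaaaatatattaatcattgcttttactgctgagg
Col5a1: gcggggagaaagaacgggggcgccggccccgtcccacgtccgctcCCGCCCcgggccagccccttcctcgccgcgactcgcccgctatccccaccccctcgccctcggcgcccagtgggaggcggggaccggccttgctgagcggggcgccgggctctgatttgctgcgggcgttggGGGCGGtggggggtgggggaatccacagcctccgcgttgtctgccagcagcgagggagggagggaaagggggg
Col5a3: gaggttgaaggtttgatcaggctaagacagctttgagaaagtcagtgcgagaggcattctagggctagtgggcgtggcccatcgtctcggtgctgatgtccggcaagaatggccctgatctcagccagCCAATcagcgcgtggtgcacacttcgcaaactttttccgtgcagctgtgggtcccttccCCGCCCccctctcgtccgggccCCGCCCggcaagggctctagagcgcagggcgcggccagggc
The Col1a2 window had a CCAAT box 109 bases before the start and GC boxes at 205 and 188 bases before it. In the Col3a1 window, which at 35.2% G and C was the poorest of the 4, a TATA box stood 117 bases before the start and neither other motif was found. The windows of Col5a1 (76.4% G and C) and Col5a3 (62.8%) each held 2 GC boxes, at 205 and 73 bases before the start in Col5a1 and at 63 and 41 in Col5a3, and that of Col5a3 also held a CCAAT box at 122. Over the family, 35 members matched 38 windows. The GC box was in 57.9% of these, beside 32.7% of all 32851 windows, the CCAAT box in 34.2% beside 33.8%, and the TATA box in 13.2% beside 12.4%. Of the 19 members with a window that were higher in CCl4 against control, 13 held a GC box, 6 a CCAAT box and 2 a TATA box. Among all 35 members with a window these counts were 21, 13 and 5. A match is a string of letters and not a site shown to be bound.

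Of the remaining fibrillar genes, Col27a1, a short fibrillar chain known from cartilage, fell and Col11a2, a type XI chain also known from cartilage, was called higher at a low level. Col27a1 had 7.33, 15.0 and 22.1 CPM in CCl4_PTH livers, 7.94, 12.5 and 14.4 CPM in CCl4 livers, and 23.9, 32.3 and 46.7 CPM in control livers. All 12 livers given CCl4 lay below all 6 controls. Col27a1 was lower by -1.54 ± 0.24 (adjusted p 3.98e-05) in CCl4 against control and by -1.2 ± 0.23 (0.00105) in CCl4_PTH against control, and it was the single member lower in the second of these comparisons. In CCl4_PTH against CCl4 it differed by 0.34 (adjusted p 0.378), which was not called.

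Col11a2 had 0.227, 0.386 and 0.468 CPM in CCl4_PTH livers, 0.526, 0.82 and 1.34 CPM in CCl4 livers, and 0.0781, 0.53 and 0.666 CPM in control livers. Every CCl4_PTH library lay below every CCl4 library, and the controls overlapped both. It was higher by 1.05 ± 0.38 (adjusted p 0.0288) in CCl4 against control and lower by -1.26 ± 0.38 (0.0345) in CCl4_PTH against CCl4. The first of these calls carries the limit of the filter given above. The difference between CCl4_PTH and CCl4 livers missed the threshold without any 1 of CCl4 2, 4 or 7 or of CCl4_PTH 2, 3, 6, 7 or 8 (adjusted p 0.0564 to 0.0941), and that between CCl4 and control livers without control 4 or any 1 of CCl4 2, 4 or 7 (0.053 to 0.074). Col24a1 was not called by edgeR with all 18 libraries in any comparison. In CCl4 against control it was called lower by limma-voom (-1.4, adjusted p 0.0479) and by edgeR without CCl4 5 (-1.66, 0.0109) or without CCl4_PTH 3 (-1.1, 0.0466), and in CCl4_PTH against CCl4 it was called higher without CCl4 5 (1.69, 0.0354). Col2a1 had 11 counts in 2 libraries and Col11a1 84 counts in 4 libraries, 71 of them in CCl4_PTH 1, and neither was tested.

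**Figure D2:**
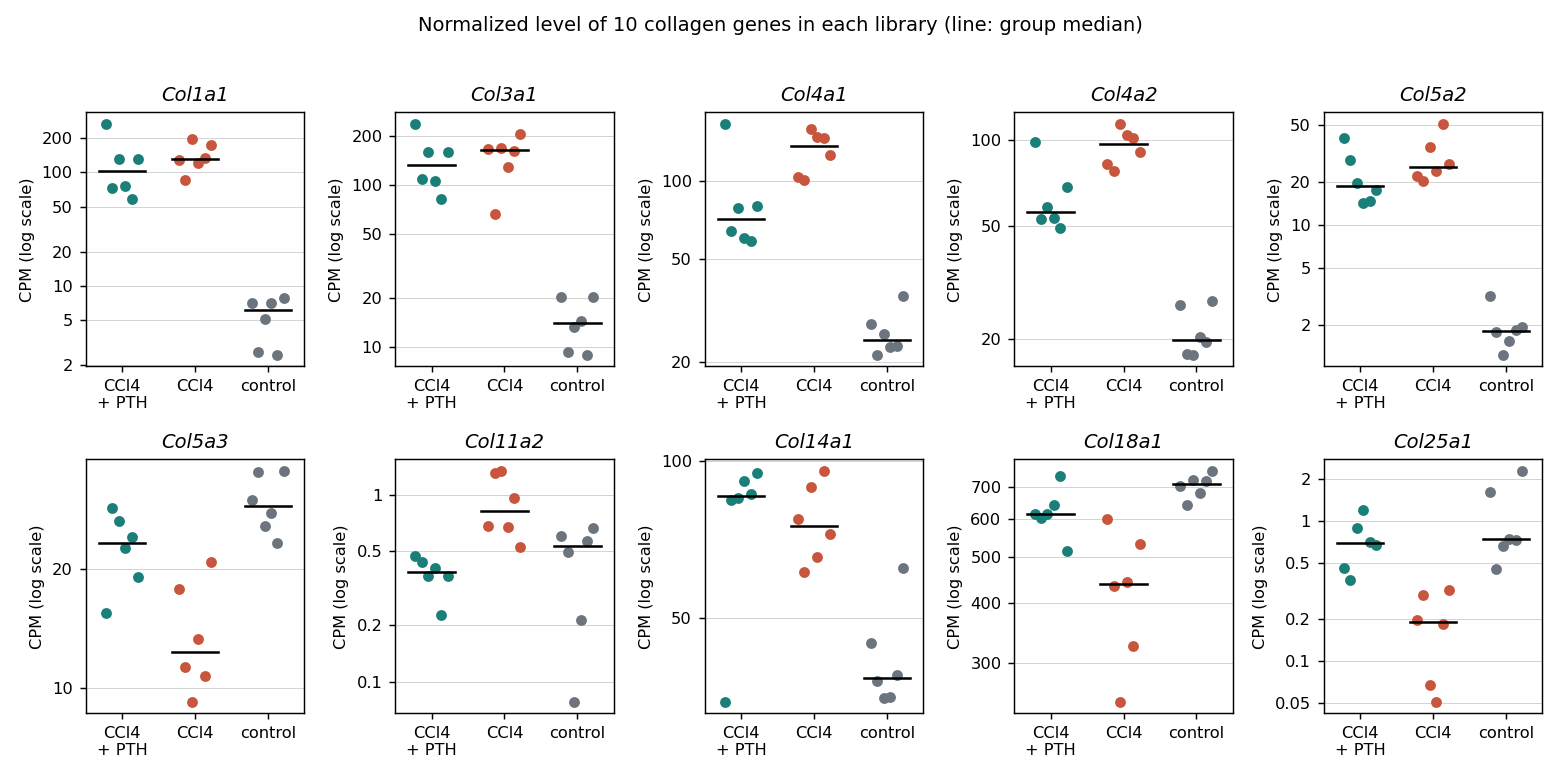
CPM per library (vertical axis, log scale) of 10 collagen genes in CCl4_PTH, CCl4 and control livers, 1 point per library and a line at the median of 6. Col1a1, Col3a1, Col4a1, Col4a2 and Col5a2 lie above the controls in all 12 livers given CCl4, and Col5a3, Col18a1 and Col25a1 lie below the controls in all 6 CCl4 livers.

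The type IV genes lie as 3 head-to-head pairs, Col4a1 with Col4a2, Col4a3 with Col4a4 and Col4a5 with Col4a6, and 4 of the 6 were higher in CCl4 against control. Col4a1 and Col4a2 make the common basement membrane chains, found under endothelium and along vessels. Col4a1 (chr8:11198423-11312826, minus strand) had 58.8, 71.3 and 167 CPM in CCl4_PTH livers, 101, 136 and 159 CPM in CCl4 livers, and 21.3, 24.4 and 36.1 CPM in control livers. Col4a2 (chr8:11312805-11449287, plus strand), whose exons overlap those of Col4a1 by 22 bases, had 49.2, 55.8 and 98.2 CPM in CCl4_PTH livers, 78.0, 96.4 and 114 CPM in CCl4 livers, and 17.6, 19.9 and 27.2 CPM in control livers. For both genes 5 of 6 CCl4_PTH libraries lay below all 6 CCl4 libraries and above all controls, and CCl4_PTH 1 lay among the CCl4 livers for Col4a2 and above them for Col4a1.

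Col4a2 was higher by 2.15 ± 0.17 (adjusted p 3.35e-08) in CCl4 against control and lower by -0.59 ± 0.16 (0.0241) in CCl4_PTH against CCl4, a level 1.5-fold lower. Col4a1 was higher by 2.33 ± 0.23 (adjusted p 4.73e-07) in CCl4 against control, and its difference of -0.63 ± 0.22 in CCl4_PTH against CCl4 missed the threshold in edgeR (0.0724) and passed it in DESeq2 (-0.64, 0.0329) and limma-voom (-0.84, 0.00236). Without CCl4_PTH 1 the differences were -0.92 for Col4a1 (adjusted p 0.000506) and -0.73 for Col4a2 (0.0012), and both were called. Col4a2 missed the threshold without any 1 of CCl4 4 or 7 or of CCl4_PTH 2, 3, 6 or 7 (adjusted p 0.0528 to 0.068). In CCl4_PTH against control, Col4a1 was higher by 1.7 ± 0.23 (3.81e-05) and Col4a2 by 1.56 ± 0.17 (3.66e-06).

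Col4a5 and Col4a6, X-linked chains of specialised basement membranes such as those of kidney and smooth muscle, were higher in both groups given CCl4. Col4a5 had 5.35, 8.53 and 13.1 CPM in CCl4_PTH livers, 5.87, 9.57 and 19.4 CPM in CCl4 livers, and 0.781, 0.887 and 1.85 CPM in control livers. Col4a6 had 2.06, 3.36 and 4.36 CPM in CCl4_PTH livers, 1.73, 2.81 and 4.12 CPM in CCl4 livers, and 0.19, 0.422 and 0.869 CPM in control livers. Neither overlapped the controls in either group, and the log2 fold changes in CCl4 against control were 3.39 ± 0.31 (adjusted p 1.66e-07) and 2.65 ± 0.31 (2.23e-06).

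Col4a3 and Col4a4, chains of the kidney filter's basement membrane, were low in all groups. Col4a3 had 0.877, 2.72 and 3.8 CPM in CCl4_PTH livers, 1.45, 2.05 and 4.15 CPM in CCl4 livers, and 0.842, 1.22 and 2.42 CPM in control livers, and was not called by edgeR with TMM factors in any comparison, while limma-voom called it higher in CCl4_PTH against control (0.95, adjusted p 0.029). Col4a4 had 1.87, 3.13 and 6.1 CPM in CCl4_PTH livers, 1.22, 2.35 and 2.83 CPM in CCl4 livers, and 1.62, 1.99 and 2.13 CPM in control livers. These groups overlapped. By edgeR with TMM factors, Col4a4 was called only in CCl4_PTH against control (0.78 ± 0.25, adjusted p 0.0276). That call was lost without any 1 of controls 2, 3, 4 or 8 or of CCl4_PTH 2, 3 or 8 (0.0501 to 0.117).

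Of the group of type VI and type XXVIII genes, all 5 tested type VI members were higher in CCl4 against control, each by more than 4-fold. Col28a1 was called too but had 0 counts in control livers, and Col6a4 with 22 counts in 4 libraries was not tested. Col6a1, Col6a2 and Col6a3 encode the classic type VI chains. Col6a1 had 24.7, 32.4 and 45.1 CPM in CCl4_PTH livers, 29.0, 36.2 and 46.6 CPM in CCl4 livers, and 6.51, 8.37 and 9.09 CPM in control livers. Col6a2 had 14.8, 23.7 and 38.3 CPM in CCl4_PTH livers, 18.7, 27.4 and 32.6 CPM in CCl4 livers, and 2.91, 5.82 and 6.82 CPM in control livers. Col6a3 had 47.2, 63.3 and 105 CPM in CCl4_PTH livers, 52.2, 78.6 and 100 CPM in CCl4 livers, and 9.18, 11.9 and 19.6 CPM in control livers. For all 3 genes both groups given CCl4 lay wholly above the controls and overlapped each other. Their log2 fold changes in CCl4 against control were 2.22 ± 0.17 (adjusted p 2.73e-08), 2.28 ± 0.25 (1.07e-06) and 2.5 ± 0.23 (1.66e-07).

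Col6a5 and Col6a6 encode type VI chains that can take the place of the Col6a3 chain. Col6a5 had 2.93, 7.44 and 26.3 CPM in CCl4_PTH livers, 6.07, 11.3 and 26 CPM in CCl4 livers, and 0.199, 0.742 and 1.27 CPM in control livers. Its log2 fold change was 4.41 ± 0.64 (adjusted p 3.17e-05) in CCl4 against control and 3.79 ± 0.63 (0.000343) in CCl4_PTH against control. Col6a6 rose by 2.59 ± 0.29 (adjusted p 1.61e-06) in CCl4 against control.

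Col28a1, the single gene of type XXVIII collagen, had 0 counts in all 6 controls. It had 0.0312, 0.102 and 4.18 CPM in CCl4_PTH livers and 0, 0.265 and 2.94 CPM in CCl4 livers. One library of each group held most of its counts, CCl4_PTH 8 with 491 of 549 and CCl4 4 with 304 of 444. Against a floor of 3 counts over the control group, which covers counting error only, the pooled level was at least 105-fold higher in CCl4_PTH livers and at least 107-fold higher in CCl4 livers. Without those 2 libraries the bounds were at least 13.4-fold and at least 41.5-fold. Since Col28a1 passed the filter through the livers given CCl4 alone, its calls against control are not read as a test. In CCl4_PTH against control the call was lost with no filter on low counts (adjusted p 0.0504), without controls 1 and 8 (0.0586) and with limma-voom (0.0667).

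Col7a1, the chain of the anchoring fibrils that fix skin to its underlying tissue, had 0.233, 0.568 and 0.945 CPM in CCl4_PTH livers, 0.48, 0.883 and 1.52 CPM in CCl4 livers, and 0, 0.201 and 0.313 CPM in control livers. All CCl4 libraries and 5 of the 6 CCl4_PTH libraries lay above the highest control. It was higher by 2.34 ± 0.5 (adjusted p 0.000751) in CCl4 against control and by 1.74 ± 0.49 (0.0131) in CCl4_PTH against control. Both calls carry the limit of the filter given above.

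The short-chain genes are Col8a1 and Col8a2, whose products form a lattice under endothelium, and Col10a1, known from hypertrophic cartilage. Col8a1 had 1.02, 1.5 and 3.64 CPM in CCl4_PTH livers, 1.56, 1.89 and 2.23 CPM in CCl4 livers, and 0.183, 0.485 and 0.941 CPM in control livers. Col8a2 had 0.358, 0.901 and 1.71 CPM in CCl4_PTH livers, 0.389, 0.597 and 1.7 CPM in CCl4 livers, and 0, 0.134 and 0.545 CPM in control livers. Col8a1 did not overlap the controls and Col8a2 did, and both were higher in CCl4 against control, by 1.84 ± 0.36 (adjusted p 0.000314) and 2.07 ± 0.6 (0.00848). The call of Col8a2 carries the limit of the filter given above. Col10a1 had 1.26, 1.53 and 2.14 CPM in CCl4_PTH livers, 0.968, 1.6 and 1.95 CPM in CCl4 livers, and 0.937, 1.43 and 1.87 CPM in control livers. The 3 groups of Col10a1 overlapped, and it was not called by edgeR with TMM factors in any comparison.

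Among the FACIT genes 5 of 9 were tested. Col14a1, whose product binds the surface of type I fibrils, was the FACIT gene with the highest level per kilobase of exon. It had 34.6, 85.9 and 95.1 CPM in CCl4_PTH livers, 61.5, 75.1 and 95.9 CPM in CCl4 livers, and 35.2, 38.5 and 62.4 CPM in control livers. CCl4_PTH 1 lay below every control, while the other 5 CCl4_PTH libraries (84.3 to 95.1 CPM) lay above them all. Col14a1 was higher by 0.86 ± 0.2 (adjusted p 0.00166) in CCl4 against control and by 0.91 ± 0.2 (0.00264) in CCl4_PTH against control. Col12a1, a relative of Col14a1, and Col16a1 were also higher in CCl4 against control, by 1.91 ± 0.26 (adjusted p 1.29e-05) and 1.65 ± 0.23 (1.46e-05), with no overlap. Col9a3 and Col20a1 were not called in any comparison by edgeR fitted to all 18 libraries with TMM factors. For Col9a3 in CCl4 against control, edgeR gave 1.92 ± 0.79 (adjusted p 0.0529), while DESeq2 (1.96, 0.0284) and limma-voom (2.55, 0.0377) called it higher, as did edgeR without control 4, CCl4 8 or CCl4_PTH 7 (0.0295 to 0.0452). Col9a2 had 82 counts in 9 libraries, Col22a1 56 in 4 and Col19a1 4 in 1, and Col9a1 had 0 in all 18, as did Col26a1, which belongs to none of these classes.

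The multiplexin genes Col15a1 and Col18a1, both tied to basement membranes, moved in opposite directions. Col18a1 (chr10:77052178-77166548, minus strand), whose product releases the fragment endostatin and which hepatocytes are known to express, had 513, 615 and 737 CPM in CCl4_PTH livers, 249, 438 and 599 CPM in CCl4 livers, and 641, 710 and 755 CPM in control livers. Every CCl4 library lay below every control, with CCl4 4 the lowest, and CCl4_PTH livers overlapped both groups. Col18a1 was lower by -0.71 ± 0.17 (adjusted p 0.002) in CCl4 against control, a level 1.63-fold lower, higher by 0.53 ± 0.17 (0.0476) in CCl4_PTH against CCl4, and not called in CCl4_PTH against control (-0.18 ± 0.17, 0.461). The fall was not called with library sizes alone (-0.17, adjusted p 0.4), where the median of all genes was 0.63, and the rise was lost in 17 of 28 alternative settings. Of those settings, 13 left out a single library: controls 2, 3, 4, 5 and 8, CCl4 2, 4, 5 and 7, and CCl4_PTH 2, 3, 6 and 7 (adjusted p 0.0509 to 0.117).

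Col15a1 had 8.88, 12.9 and 32.8 CPM in CCl4_PTH livers, 12.6, 23.7 and 40.4 CPM in CCl4 livers, and 1.52, 4.57 and 5.8 CPM in control livers. Neither group given CCl4 overlapped the controls. The log2 fold change was 2.62 ± 0.4 (adjusted p 4.45e-05) in CCl4 against control and -0.73 ± 0.37 (0.217) in CCl4_PTH against CCl4, and the second value was called without CCl4_PTH 1 (-1.08, 0.0368) and by limma-voom (-0.9, 0.0373).

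Of the 4 transmembrane collagens, single-pass proteins of the cell surface whose outer part can be shed, 1 was called. Col25a1 (chr3:130131501-130599877, plus strand), known from neurons and developing muscle, had 0.382, 0.693 and 1.21 CPM in CCl4_PTH livers, 0.051, 0.191 and 0.322 CPM in CCl4 livers, and 0.457, 0.742 and 2.29 CPM in control livers. Every CCl4 library lay below every library of the other groups, and CCl4_PTH and control livers overlapped. Col25a1 was lower by -2.54 ± 0.48 (adjusted p 0.000242) in CCl4 against control, higher by 1.94 ± 0.47 (0.0127) in CCl4_PTH against CCl4, and not called in CCl4_PTH against control (-0.6 ± 0.44, 0.338). CCl4 libraries held 4 to 30 counts of it, CCl4_PTH libraries 54 to 155 and controls 24 to 158. Both calls of Col25a1 carry the limit of the filter given above, here through low counts in CCl4 livers. Col13a1, known from the junction of nerve and muscle, had 2.57, 3.5 and 5.87 CPM in CCl4_PTH livers, 2.85, 3.29 and 5.56 CPM in CCl4 livers, and 1.92, 2.86 and 3.87 CPM in control livers. The groups overlapped, and neither Col13a1 nor Col17a1 nor Col23a1 was called by edgeR with TMM factors in any comparison.

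The edgeR calls of each member over the 3 comparisons fell into few patterns. In CCl4 against control, CCl4_PTH against CCl4 and CCl4_PTH against control, 21 members were higher, not called and higher. Col5a3, Col18a1 and Col25a1 were lower, higher and not called, Col4a2 was higher, lower and higher, Col11a2 higher, lower and not called, and Col27a1 lower, not called and lower. By edgeR with TMM factors and all 18 libraries, Col4a4 was called in the last comparison only, and 8 members were called in none of the 3. These comparisons share groups in pairs, so the patterns are not independent of each other.

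Summed over all 44 members, collagen counts came to 1310, 1420 and 1980 CPM in CCl4_PTH livers, 1160, 1490 and 1710 CPM in CCl4 livers, and 845, 932 and 1080 CPM in control livers. The fibrillar sum was 261, 408 and 830 CPM in CCl4_PTH livers, 290, 500 and 621 CPM in CCl4 livers, and 80, 96.9 and 136 CPM in control livers. The type IV sum was 124, 145 and 283 CPM in CCl4_PTH livers, 204, 250 and 292 CPM in CCl4 livers, and 42.9, 47.9 and 68.8 CPM in control livers. The fibrillar and type IV sums of all livers given CCl4 lay above all controls, and CCl4_PTH 1 was the highest CCl4_PTH library in both. No test was made on these sums.

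On the scale of CPM per kilobase of exon, with all annotated exons of a gene joined, Col18a1 had the highest level in every group. The length of the transcripts present was not measured, so shares and ranks between genes are approximate. Its share of the family's summed CPM per kilobase was 34.1%, 45.6% and 58.2% in CCl4_PTH livers, 18%, 34.2% and 42.7% in CCl4 livers, and 72.4%, 76.9% and 79.3% in control livers. Col1a1 ranked 2nd by median share in CCl4_PTH and in CCl4 livers and 11th in control livers, with median shares of 8.14%, 10.4% and 0.693%. Col5a3 ranked 10th in CCl4_PTH livers, 14th in CCl4 livers and 3rd in control livers.

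**Figure D3:**
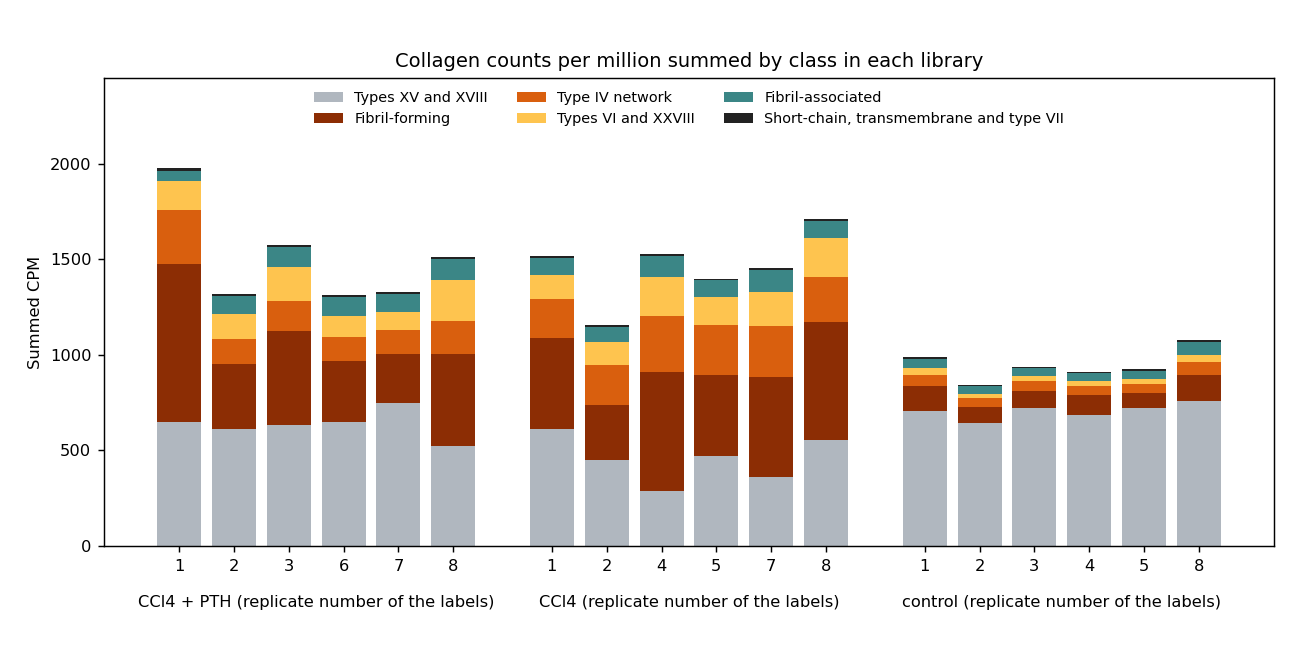
Summed CPM of the collagen classes (vertical axis, stacked bars from 0) in each of the 18 libraries, in the order CCl4_PTH, CCl4 and control. The multiplexin segment, which is mostly Col18a1, has a median of 639 CPM in CCl4_PTH livers, 459 CPM in CCl4 livers and 715 CPM in control livers, and the fibrillar segment 408, 500 and 96.9 CPM in the same order.

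Ratios between chains do not depend on how libraries are scaled. The 10 pairs were fixed for chains that join in a molecule or lie side by side, and for Col3a1 with Col1a1, whose types share fibrils. Their log2 ratio of counts was compared with two-sided exact permutation tests (30 tests, adjusted together, with 0.00216 the smallest p that 6 against 6 allows). The same 4 pairs passed in CCl4 against control and in CCl4_PTH against control, each at p 0.00216 (adjusted 0.00812), and the groups of these pairs did not overlap. The counts behind a ratio come from genes of different length, so only its change between groups is read.

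For Col1a1 over Col1a2 the mean log2 ratio was 0.24 ± 0.13 in CCl4_PTH livers, 0.28 ± 0.09 in CCl4 livers and -0.66 ± 0.43 in control livers (SD, n = 6 each, exact permutation tests as above). Per kilobase of exon the median ratio was 2.24 in CCl4_PTH livers, 2.26 in CCl4 livers and 1.3 in control livers. The lengths used join all annotated exons, 6.56 kb for Col1a1 and 12.43 kb for Col1a2, and the size of this ratio depends on them. It is not a measure of transcripts of one chain per transcript of the other, and only its change between groups is read. For Col3a1 over Col1a1 the mean log2 ratio was 0.31 ± 0.27 in CCl4_PTH livers, 0.06 ± 0.3 in CCl4 livers and 1.51 ± 0.31 in control livers. Type I counts were higher relative to type III counts in both groups given CCl4.

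Within type V, Col5a1 over Col5a2 had a mean log2 ratio of 0.23 ± 0.51 in CCl4_PTH livers, 0.13 ± 0.38 in CCl4 livers and 2.32 ± 0.51 in control livers. Col5a3 over Col5a2 had 0.1 ± 0.78 in CCl4_PTH livers, -1.08 ± 0.81 in CCl4 livers and 4.0 ± 0.45 in control livers. As plain count ratios, Col5a3 stood at a median of 1.22 counts per count of Col5a2 in CCl4_PTH livers, 0.562 in CCl4 livers and 18.3 in control livers. The difference of Col5a3 over Col5a2 between CCl4_PTH and CCl4 livers was 1.18 on the log2 scale (exact permutation p 0.039, adjusted 0.13), and 0 of the 10 pairs passed in that comparison, with 1 at an unadjusted p under 0.05. Without CCl4_PTH 1 that difference was 1.48 and passed.

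In the other 6 pairs (Col4a1 over Col4a2, Col4a3 over Col4a4, Col4a5 over Col4a6, Col6a1 over Col6a2, Col6a3 over Col6a1 and Col8a1 over Col8a2) no difference passed in any comparison, with adjusted exact permutation p from 0.169 to 0.922. Col4a1 over Col4a2 had a mean log2 ratio of 0.36 ± 0.22 in CCl4_PTH livers, 0.45 ± 0.08 in CCl4 livers and 0.29 ± 0.17 in control livers (SD). Without CCl4_PTH 1 the difference of Col4a1 over Col4a2 between CCl4_PTH and CCl4 livers was -0.18 and passed, and without control 3 that between CCl4 and control livers was 0.22 and passed. For Col6a1 over Col6a2 it was 0.44 ± 0.2, 0.52 ± 0.12 and 0.62 ± 0.32 in the same order.

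**Figure D4:**
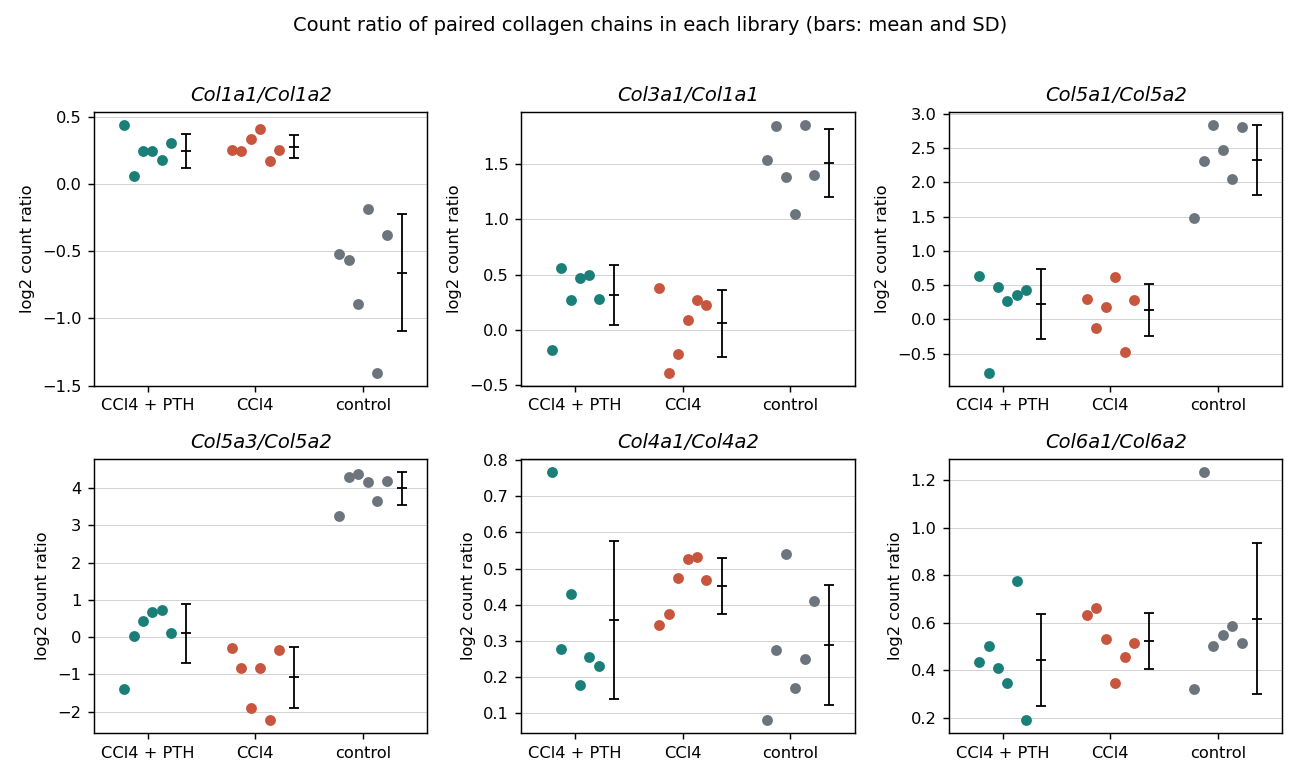
Log2 ratio of counts (vertical axis) of 6 pairs of collagen genes in CCl4_PTH, CCl4 and control livers, 1 point per library, with the mean and SD of 6. Col1a1/Col1a2, Col3a1/Col1a1, Col5a1/Col5a2 and Col5a3/Col5a2 separate both groups given CCl4 from control, while Col4a1/Col4a2 and Col6a1/Col6a2 overlap in all 3 groups.

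Within a group, livers high in one chain tended to be high in its partner. The correlation of log2 CPM was taken in each group of 6 apart. Exact permutation p-values were adjusted over the 9 Pearson and 9 Spearman tests together. For Col1a1 with Col1a2, Pearson's r was 1.0 in CCl4_PTH livers (p 0.00833, adjusted 0.025, rho 0.94), 0.98 in CCl4 livers (0.00278, adjusted 0.0125, rho 1.0) and 0.82 in control livers (0.0806, adjusted 0.121, rho 0.77). For Col4a1 with Col4a2, r was 0.98 in CCl4_PTH livers (exact p 0.00556, adjusted 0.02, rho 0.94), 0.99 in CCl4 livers (0.00278, adjusted 0.0125, rho 1.0) and 0.82 in control livers (0.0722, adjusted 0.118, rho 0.6). With the 2 libraries farthest from the median left out, r was 0.98, 0.94 and 0.04 for type I and 0.85, 0.97 and -0.16 for type IV in the same order of groups, so the values in control livers rested on those libraries.

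Between the types, Col1a1 with Col4a1 had r 0.95 in CCl4_PTH livers (exact permutation p 0.0111, adjusted 0.0286, rho 0.89). It was 0.62 in CCl4 livers (exact p 0.206, adjusted 0.247, rho 0.6) and 0.67 in control livers (0.0889, adjusted 0.123, rho 0.54). Without the 2 farthest libraries r was 0.97, -0.18 and 0.48.

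Genes that build, process, bind and break down collagen were read from 6 lists, and most tested members of 5 of them were higher in CCl4 against control, where 26.3% of all genes were higher and 21.2% lower. Of 21 tested genes for chain modification and folding, 10 were higher and 3 lower (median log2 fold change 0.37, beside 0.05 for all genes). Among them P3h3, a prolyl hydroxylase relative, rose by 1.51 ± 0.18 (adjusted p 2.58e-06) and Crtap, part of the prolyl 3-hydroxylase complex, by 1.39 ± 0.19 (8.28e-06). Of 12 genes for propeptide removal and crosslinking, 9 were higher (median 1.56), with Adamts2, which cuts the amino end of procollagen, up by 2.01 ± 0.17 (8.15e-08) and Pcolce, an enhancer of the cut at the other end, by 1.48 ± 0.16 (1.01e-06). Of 12 fibril-binding genes, 7 were higher (median 1.16), among them Lum, a proteoglycan on fibrils, by 3.57 ± 0.24 (7.75e-09) and Sparc, a collagen-binding protein, by 1.82 ± 0.2 (1.21e-06).

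Collagen receptors were higher for 9 of 11 tested genes (median 1.78), among them Ddr1, a kinase that binds collagen, by 3.41 ± 0.27 (adjusted p 3.2e-08) and Mrc2, which takes collagen fragments into cells, by 2.95 ± 0.27 (2.07e-07). Of 12 genes for breakdown and its inhibitors, 11 were higher and 1, Mmp15, lower (-0.85 ± 0.3, adjusted p 0.0271), with a median of 2.51. The gelatinase Mmp2 rose by 3.63 ± 0.22 (2.48e-09) and Timp2, which inhibits such enzymes, by 1.87 ± 0.18 (2.12e-07). Of 16 other basement membrane genes, 13 were higher and 2 lower (median 0.75), the laminin genes Lama3 by -1.83 ± 0.37 (adjusted p 0.000554) and Lamb3 by -1.51 ± 0.37 (0.0025), while Lama2 and Nid1, another laminin gene and nidogen 1, rose by 2.3 ± 0.22 each (2.48e-07 and 2.99e-07).

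In CCl4_PTH against CCl4, the same lists had 2 genes higher and 9 lower among 84 tested, beside 7.1% and 4.95% of all genes. The 11 calls became 20 without CCl4_PTH 1, 7 without CCl4 7, and 6 without any 1 of CCl4 4, CCl4_PTH 6 or CCl4_PTH 7. P3h1, a prolyl 3-hydroxylase, was lower by -0.85 ± 0.13 (adjusted p 0.000696), and Mia2, which helps large cargo leave the endoplasmic reticulum, higher by 0.41 ± 0.11 (0.0247). The processing genes Pcolce and Tgm2, a crosslinking enzyme, were lower by -0.5 ± 0.16 (0.0441) and -0.94 ± 0.24 (0.0163). Pcolce had 5.44, 6.54 and 9.03 CPM in CCl4_PTH livers, against 9.45, 10 and 10.5 CPM in CCl4 livers, with no overlap.

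The receptors Ddr1 (-0.89 ± 0.24, adjusted p 0.0205), Lair1 (-1.07 ± 0.31, 0.0315) and Cd44 (-1.03 ± 0.24, 0.0113) were lower in CCl4_PTH against CCl4. The last 2 of these are also expressed by immune cells. The collagenases Mmp13 (-3.18 ± 0.78, 0.0148) and Mmp14 (-0.79 ± 0.19, 0.0111) were lower too. Mmp13 had 0.468, 0.908 and 1.14 CPM in CCl4_PTH livers, against 0.557, 8.36 and 12.8 CPM in CCl4 livers, and the groups overlapped. Nid1 was lower by -0.84 ± 0.21 (0.0161) and Lama3 higher by 1.16 ± 0.37 (0.0469), and 0 of 12 fibril-binding genes were called by edgeR, DESeq2 or limma-voom, with 1 at an unadjusted p under 0.05. In CCl4_PTH against control, the 6 lists had 7, 7, 7, 9, 11 and 12 genes higher and 2, 0, 0, 0, 0 and 1 lower, in the order chain modification, processing, fibril binding, receptors, breakdown and basement membrane, beside 17.4% and 10.3% of all genes.

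Markers of the cells a liver sample can hold were read beside the collagens, with 26.3% of all genes higher and 21.2% lower in CCl4 against control. Portal fibroblast markers were higher for 9 of 9 tested genes in CCl4 against control, with a summed level of 21.9 to 52.9 CPM in CCl4_PTH livers, 30 to 57.9 CPM in CCl4 livers and 7.67 to 12.1 CPM in control livers. Myofibroblast markers were higher for 5 of 8 genes (15.7 to 62.0, 22.2 to 40.3 and 8.26 to 14.2 CPM in the same order), but Acta2, the muscle actin that defines that state, was not called (0.47 ± 0.54, adjusted p 0.502). Stellate cell markers had 7 higher and 1 lower of 12, Ecm1 being the lower, with sums of 283 to 392, 293 to 440 and 248 to 358 CPM that overlapped between groups.

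Hepatocyte markers had 0 higher and 4 lower of 7 in CCl4 against control, with sums of 38900 to 51600 CPM in CCl4_PTH livers, 21400 to 54900 CPM in CCl4 livers and 48900 to 64100 CPM in control livers. All 7 had counts in every group. Endothelial markers had 4 higher and 2 lower of 9 (246 to 374, 278 to 306 and 261 to 304 CPM in the same order). Bile duct cell markers were higher for 7 of 7 genes (58.5 to 254, 91.5 to 175 and 12.1 to 26.4 CPM), mesothelial markers for 6 of 6 (6.97 to 28.6, 7.63 to 19.1 and 1.26 to 6.13 CPM) and macrophage markers for 6 of 7 (180 to 280, 250 to 470 and 75.5 to 119 CPM).

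Of the cartilage markers, Acan, Comp, Matn1 and Matn3 did not pass the filter and Matn3 had 0 counts in all libraries, while the 2 that were tested were both lower in CCl4 against control. Of 5 adipocyte markers 1 was tested, and Lep had 0 counts in all libraries. Their sum was 1.2 to 7.99 CPM in CCl4_PTH livers, 2.98 to 13.1 CPM in CCl4 livers and 2.62 to 13.1 CPM in control livers. The tested gene was not called in CCl4 against control (0.02) and was lower in CCl4_PTH against control (-1.42). That call was lost without any 1 of CCl4_PTH 2, 3, 6, 7 or 8 or of controls 3, 4 or 8. In CCl4_PTH against CCl4, 7.1% of all genes were higher and 4.95% lower. There the marker lists had 1 endothelial gene higher, 1 macrophage gene higher (Clec4f) and 2 lower (Trem2 and Cd68), and 1 cartilage gene lower. By edgeR 0 of the 7 hepatocyte, 12 stellate, 8 myofibroblast, 9 portal fibroblast, 7 bile duct and 6 mesothelial genes were called, with 3, 2, 1, 1, 0 and 0 at an unadjusted p under 0.05. DESeq2 called 1, 0, 0, 0, 0 and 0 of them and limma-voom 3, 1, 0, 0, 1 and 0. The 1 tested adipocyte gene was not called by edgeR (log2 fold change -1.44, unadjusted p under 0.05). DESeq2 and limma-voom each called 1 adipocyte gene. The part of these cells in the collagen values was not tested.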

How the data were processed

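Long RNA of 18 mouse livers (6 CCl4_PTH, 6 CCl4, 6 control) was sequenced after removal of ribosomal RNA, as pairs of 150 bases, per the labels' protocols. The authors' deposited table holds estimated counts per gene for 54752 genes, as whole numbers not scaled to depth, which is read from its values. Per the submitters' processing notes, the tools used were HISAT2 2.2.1, Bowtie2 2.5.1, StringTie 2.1.5, cutadapt 4.2 and FastQC 0.11.9, and the build was GRCm38; their roles are not given there. The counting step, its annotation and its use of strand are not given in the sources used here, so 10 collagen genes with exons overlapped on the other strand and 3 overlapped on the same strand may hold their neighbours' reads, Col4a1 and Col4a2 among them.

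Rounding changed 0 of the deposited values. Of the identifiers, 54723 matched GENCODE M21 and 29 did not. Depth was 67.2 to 118.9 M counts a library. Every pair of libraries within a group differed by more than sampling noise (chi-square per gene at least 50.8 in 45 pairs), so each library was 1 replicate. Genes were filtered with filterByExpr (minimum count 10, 21840 kept) and fitted in edgeR 4.0.16 (R 4.3.3; TMM, quasi-likelihood F test, robust, 3 groups, all 18 libraries, no block) with Benjamini-Hochberg adjustment over all genes and a threshold of 0.05; the procedure was tested on simulated data. The SE is the log2 fold change over the square root of F. Ratios took counts plus 0.5. DESeq2 1.42.0 and limma 3.58.1 (voom) were alternatives. Promoter windows are RefSeq's, the 250 bases before the start. The 6 pathway lists and 10 cell type marker lists (hepatocyte, stellate, myofibroblast, portal fibroblast, endothelial, bile duct, mesothelial, macrophage, adipocyte, cartilage) were read off the same fit; 1 marker, Tf, was not found.

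The members and lists were chosen with earlier results of these data known. Values by group were given for Col1a1, Col3a1 and Col4a1, the member of each class with the highest CPM per kilobase, the 3 largest rises and all falls against control, all calls between CCl4_PTH and CCl4, and both genes of each ratio. Of each pathway list, the 2 genes with the smallest p in CCl4 against control and all genes called in CCl4_PTH against CCl4 were named.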

Additional observations from a re-analysis of the deposited data

Results flagged for a closer look

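Outliers were sought in 159 groups of 6 values (a collagen gene, a class sum or a ratio in 1 group), all on the log2 scale. A highest or lowest library was marked by its gap to the nearest other library, as a share of the group's range. The mark was given where this share passed Dixon's 95% critical value for 6 samples. Genes and class sums are printed below as CPM. Chance marks about 1 group in 20, and 15 were marked, 4 of them for CCl4_PTH 1. In that library Col4a1 stood at 167 CPM (58.8 to 80 CPM in the other 5), Col14a1 at 34.6 CPM (84.3 to 95.1 CPM), the FACIT sum at 53.8 CPM (95.5 to 112 CPM), and the log2 ratio of Col5a3 over Col5a2 at -1.39 (0.0217 to 0.728). The same library stood apart on the second principal component of all genes.

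Among the other CCl4_PTH livers, Col28a1 was at 4.18 CPM in CCl4_PTH 8 (0.0312 to 0.233 CPM in the others), Col11a2 at 0.227 CPM in CCl4_PTH 7 (0.366 to 0.468 CPM), and the log2 ratio of Col5a1 over Col5a2 at -0.79 in CCl4_PTH 2 (0.271 to 0.63).

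In CCl4 livers, CCl4 2 had Col13a1 at 5.56 CPM (2.85 to 3.6 CPM in the others), Col20a1 at 1.75 CPM (0.581 to 0.779 CPM) and a transmembrane sum of 6.84 CPM (3.97 to 4.59 CPM). In CCl4 5, Col4a4 was at 1.22 CPM (2.24 to 2.83 CPM).

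In control livers, control 8 had Col4a5 at 1.85 CPM (0.781 to 0.915 CPM in the others) and Col5a1 at 13.5 CPM (7.57 to 8.89 CPM). Control 2 had 0 CPM of Col7a1 (0.138 to 0.313 CPM) and a log2 ratio of Col6a1 over Col6a2 of 1.24 (0.319 to 0.584). Col7a1 and Col28a1 rest on few counts.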

How the results depend on the processing

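In CCl4 against control the count of collagen genes called was 26 to 31 under every alternative, and in CCl4_PTH against control 22 to 27. All genes called in CCl4 against control were 8682 with a replicate block and 12336 with library sizes alone, beside 10362 in the main fit. In CCl4_PTH against control they were 3343 and 9912, beside 6051. No gene changed sign with a call. Of 1003, 1003 and 1002 values per gene and setting (CCl4 against control, then CCl4_PTH against CCl4, then CCl4_PTH against control), 982, 955 and 985 kept their side of the threshold, 7, 41 and 13 lost a call and 14, 7 and 4 gained one. Without controls 1 and 8, chosen after seeing the data, the counts were 27, 4 and 22. The cause of lost and gained calls was not tested. Genes under about 1 CPM, such as Col11a2, Col25a1 and Col28a1, are limited by depth.

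Where library sizes alone scaled the counts, all genes had a median of 0.63, -0.13 and 0.51 in the 3 comparisons, and the share of called genes that were higher was 91.4% against 55.3% with TMM, 43.4% against 58.9%, and 96.4% against 62.8%. For collagens that share was 90.3% against 85.2%, 100% against 60%, and 96.3% against 95.8%. All genes called were 1097 in CCl4_PTH against CCl4 and 9912 in CCl4_PTH against control. In CCl4_PTH against CCl4 it left 1 collagen gene and 1 gene each of the chain modification, processing and basement membrane lists, and in CCl4_PTH against control it called 15 chain modification genes. Col4a3, Col10a1 and Col13a1 were called higher in both comparisons against control (adjusted p 0.00203 to 0.0378), as were Col9a3 (0.0141) and Col4a4 (0.0296) in CCl4 against control. Col18a1 was not called there (-0.17), and in CCl4_PTH against control the differences of Col5a3, Col18a1 and Col11a2, never called, became 0.11, 0.29 and 0.23. The log2 ratio of mean class sums became, in CCl4 against control and CCl4_PTH against control, 1.21 and 1.13 for all members, 3.08 and 2.77 for the type VI class, 1.57 and 1.44 for FACIT, 2.8 and 2.11 for type IV, 1.63 and 1.53 for short-chain, 0.56 and 0.58 for transmembrane and -0.09 and 0.32 for multiplexin genes (-0.63 and -0.15 with TMM). The fibrillar sum was 2.82 in CCl4 against control.

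Leaving out 1 library gave 1 to 8 collagen genes in CCl4_PTH against CCl4, 1 to 4 genes for chain modification, 1 to 4 for processing, 1 to 3 receptors, 2 to 4 for breakdown, 1 to 5 for basement membrane and 1509 to 3854 of all genes. The log2 ratio of Col4a1 over Col4a2 ran from 0.12 to 0.22 in CCl4 against control and from -0.18 to -0.06 in CCl4_PTH against CCl4, and that of Col5a3 over Col5a2 from 0.95 to 1.48 in the second of these. In CCl4_PTH against CCl4, limma-voom called 4 chain modification, 6 processing, 4 breakdown and 6 basement membrane genes and 4167 of all genes, and DESeq2 4 chain modification genes. No filter left 1 processing and 1 basement membrane gene, the 2 groups alone 1 and 1, and leaving out ribosomal RNA loci 1 processing gene. Without the 2 farthest libraries, r was 0.98 and 0.94 (Col1a1 with Col1a2, CCl4_PTH and CCl4), 0.85, 0.97 and -0.16 (Col4a1 with Col4a2, CCl4_PTH, CCl4 and control), and 0.97 and -0.18 (Col1a1 with Col4a1, CCl4_PTH and CCl4); 4 libraries cannot reach the threshold.

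Libraries with the same number did not deviate together (correlations -0.21 to 0.08 over pairs), so the numbers were not taken to pair the mice. With a replicate block, 0 collagen genes were called in CCl4_PTH against CCl4 by edgeR, and 0 genes of each of the chain modification, processing, receptor, breakdown and basement membrane lists, with 84 called among all genes and 3343 in CCl4_PTH against control. The block left 26 and 22 collagen genes called against control. Lost calls under the block included Col25a1 in CCl4_PTH against CCl4 (1.5, adjusted p 0.182) and Col14a1 in CCl4_PTH against control (0.75, 0.0525). Within blocks the log2 ratios were, in CCl4 against control and CCl4_PTH against control, 0.91 and 0.85 for Col1a1 over Col1a2, -1.52 and -1.31 for Col3a1 over Col1a1, -1.97 and -2.17 for Col5a1 over Col5a2, and -4.77 and -4.24 for Col5a3 over Col5a2. The smallest exact p such pairs allow is 0.0625 with 5 shared numbers and 0.125 with 4.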
